A study of Mus musculus with 8 samples.

Results

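The MHC class III region lies on mouse chromosome 17 between the class II and class I genes of the major histocompatibility complex. Its members were chosen by position, as all rows of the count table on chromosome 17 that start from 34.56 to 35.25 Mb on mm10, apart from C2, Cfb, C4b, Tnf, Neu1 and Notch4. This gave 61 of 24537 genes, and 46 of the 61 passed the filter on low counts. The window was put forward with results of the same antibody contrast known. Folds and calls of members are therefore given as a description and carry no p of their own.

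RNA came from EpCAM-positive cells, sorted by flow cytometry from pancreatic tumours without culture, with 1 library per mouse. All 8 mice were FVB/NJ and shared 1 genotype, a pancreatic tumour model driven by Pdx1-Cre, which acts in the pancreatic lineage, and including a Cre-activated luciferase allele (Rosa26LSL-Luc). All were 42 to 43 days old at the start, were given gemcitabine (50 mg/kg, days 1 and 4), and were sampled on day 6, at about 48 days of age. On days 1, 3 and 5 they received 25 mg/kg of control IgG (4 mice) or of an antibody against the cytokine LIF, leukaemia inhibitory factor (4 mice). Mice are numbered 1 to 4 within an arm, and values are listed in that order, which has no meaning of its own. No arm without gemcitabine was analysed here. The comparison asks how transcripts of the sorted tumour cells differ when LIF is neutralised during chemotherapy.

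The class III region is one of the most gene-dense parts of the mammalian genome. Unlike its class I and class II neighbours it does not encode antigen-presenting molecules, and it mixes immune genes (complement, the tumour necrosis factor and lymphotoxin cluster, proteins of macrophages) with inducible heat shock genes and with housekeeping genes for transcription, RNA export and protein quality control. Neighbours in the region share a location but for the most part neither a pathway nor a cell type.

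Promoters of 5 members are shown because the results below turn on these genes. Each line gives the 250 bases before the RefSeq transcript start (GRCm38.p6, the C57BL/6J genome), 5′ to 3′ on the gene's strand. Capitals mark a match to a searched motif. Hspa1b (chr17:34959239-34959488, minus strand) and Hspa1a (chr17:34972157-34972406, minus strand) encode the inducible chaperone HSP70, D17H6S56E-5 (chr17:35000747-35000996, minus strand) stood apart in a single library, and Aif1 (chr17:35176053-35176302, minus strand) and Ltb (chr17:35194257-35194506, plus strand) are immune genes that were called.
Hspa1b: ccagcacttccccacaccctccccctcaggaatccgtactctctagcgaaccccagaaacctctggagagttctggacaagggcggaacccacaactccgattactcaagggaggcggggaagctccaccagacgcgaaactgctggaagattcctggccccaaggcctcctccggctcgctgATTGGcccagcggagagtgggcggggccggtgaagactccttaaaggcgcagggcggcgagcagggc
Hspa1a: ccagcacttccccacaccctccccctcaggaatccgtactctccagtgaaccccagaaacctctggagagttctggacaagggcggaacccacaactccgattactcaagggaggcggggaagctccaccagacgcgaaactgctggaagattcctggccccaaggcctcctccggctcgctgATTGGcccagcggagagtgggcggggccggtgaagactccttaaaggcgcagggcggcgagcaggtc
D17H6S56E-5: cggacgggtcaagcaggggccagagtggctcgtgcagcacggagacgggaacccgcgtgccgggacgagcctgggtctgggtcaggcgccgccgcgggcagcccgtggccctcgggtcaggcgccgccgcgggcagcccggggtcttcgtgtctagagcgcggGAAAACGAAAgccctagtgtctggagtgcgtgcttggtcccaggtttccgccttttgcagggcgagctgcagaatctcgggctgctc
Aif1: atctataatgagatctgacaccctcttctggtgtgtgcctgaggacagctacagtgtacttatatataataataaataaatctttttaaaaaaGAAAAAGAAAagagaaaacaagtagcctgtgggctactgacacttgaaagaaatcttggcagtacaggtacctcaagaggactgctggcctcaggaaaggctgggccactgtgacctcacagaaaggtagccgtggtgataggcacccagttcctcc
Ltb: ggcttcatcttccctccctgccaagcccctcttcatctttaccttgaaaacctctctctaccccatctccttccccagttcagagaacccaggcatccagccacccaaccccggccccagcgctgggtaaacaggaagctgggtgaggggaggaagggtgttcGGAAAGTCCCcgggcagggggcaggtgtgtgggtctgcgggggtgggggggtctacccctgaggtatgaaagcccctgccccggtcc

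The capitals in Hspa1b and Hspa1a are a CCAAT box on the opposite strand, 67 to 63 bases before the start in both. Position by position, 247 of the 250 bases of the pair were identical (98.8%). In D17H6S56E-5 and Aif1 the capitals are an interferon-stimulated response element, written GAAANNGAAA, at 87 to 78 and 157 to 148 bases before the start. In Ltb they are a kappa B site, written GGGANNTTCC and met here on the opposite strand, at 87 to 78 bases before the start.

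Each motif was searched on both strands of the full windows, from 250 bases before to 50 after the start, and RefSeq windows were found for 42 of the 61 members. GAAANNGAAA was found in 2 of 42 members (4.76%, against 3.99% of 27025 genes), namely the pair named above. GGGANNTTCC was found in 3 (7.14% against 1.63%), namely Ltb, Ppt2 and Ly6g6f, and the PU.1 motif GAGGAAGT in 4 (9.52% against 3.69%), namely Ppt2, Lsm2, Ly6g6d and Ly6g5b. CCAAT was found in 18 members (42.9% against 41.1%) and TATAAA in 4 (9.52% against 15.7%). The strict heat shock element (GAANNTTCNNGAA or TTCNNGAANNTTC) was found in 0 of 42, and in 0.662% of all genes. A match describes letters only, and its absence says no more than that these letters are not in the window.

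Depth and cell makeup frame all values below. Counts in genes ran from 15135457 to 18972281 per library, and members held 0.292% to 0.322% of them with IgG and 0.268% to 0.511% with anti-LIF, the highest in anti-LIF mouse 3. The sort marker Epcam averaged 575 ± 76.8 CPM (counts divided by library size in units of 1000000 after TMM scaling, trimmed mean of M values; mean ± SD, n = 4) with IgG and 305 ± 74.8 with anti-LIF, whereas Ptprc, the pan-leukocyte gene CD45, averaged 281 ± 45.2 and 511 ± 47.9 CPM. RNA of leukocyte genes was thus present in the sorted samples of both arms. Anti-LIF mouse 3 stood apart for the heat shock members and IgG mouse 3 for D17H6S56E-5 and other genes of chromosome 17, and member results that rest on them are given with and without them.

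The summed share of counts of 20 epithelial markers was 0.687% to 0.833% with IgG and 0.219% to 0.429% with anti-LIF. That of 21 myeloid markers was 1.76% to 2.26% and 3.38% to 4.92%, that of 15 acinar markers 0.0328% to 0.191% and 0.265% to 1.52%, and that of 18 lymphoid markers 0.00307% to 0.00579% and 0.00643% to 0.0108%. Each of these 4 sums separated the arms (exact two-sided permutation p = 0.0286, the smallest that 70 assignments allow, or 0.04 when adjusted over the 7 lists by Benjamini-Hochberg), although the lymphoid difference no longer did without its most abundant gene, Cd4. The endothelial sum did too (0.00652% to 0.0109% and 0.0121% to 0.0141%), but without its most abundant gene, Eng, the difference turned to −0.00104 percentage points. The fibroblast sums overlapped (0.0315% to 0.11% and 0.0301% to 0.107%, exact permutation p = 0.8), as did those of 6 erythroid genes (0% to 0.000115% and 5.39e-06% to 0.000217%, exact permutation p = 0.286). The marker lists, like the members, were chosen with earlier results of these data known. The p values of their sums are therefore given as a description. Markers with 0 counts in at least 1 arm included Ncr1, Amy2a5 and Hbb-bt. In bulk RNA fewer cells of a type and less RNA per cell cannot be told apart.

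Of the 46 tested members, 7 were called higher and 5 lower with anti-LIF (edgeR quasi-likelihood test with Benjamini-Hochberg adjustment over 14711 genes, threshold 0.05). The 12 calls are 26.1% of the tested members, beside 32.2% called over all tested genes, 15.7% higher and 16.5% lower. The median log2 fold change was 0.10 over the members and −0.01 over all tested genes, and 24 of the 46 members lay within 0.3 of 0. In 16 members (34.8%) the 4 libraries of one arm all lay above those of the other, beside 35.7% of all tested genes. Nothing particular to the region is read from these shares. Directions are relative to all tested genes, since scaling the libraries to the epithelial or the myeloid list moved the median of all genes to 1.04 or −1.15. In those fits 78.0% and 86.1% of all tested genes were called. With 1 library left out the share ran from 20.1% (without IgG mouse 2) to 29.5% (without anti-LIF mouse 2). Counts from such fits, given below, stand beside these shares.

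The calls did not run in 1 direction along the chromosome. The first tested member, Gpsm3, was higher and its near neighbour Ager lower. C4a, Atf6b and Nelfe were higher, Slc44a4, 1110038B12Rik, Vwa7 and Ddah2 were lower, and Aif1, Lst1 and Ltb, close together near the far end, were higher. At the edges of the window, the last tested gene before it, Btnl2, averaged 1.42 ± 0.706 CPM with IgG and 10.3 ± 2.46 with anti-LIF, and Gpsm3, the first inside, 41.3 ± 5.66 and 69.8 ± 6.50. The last tested member, Ddx39b, averaged 211 ± 15.7 and 241 ± 10.5 CPM, and the first tested gene beyond, Mir8094, 10.003 ± 0.617 and 11.3 ± 0.726. Mir8094 starts inside the span of Ddx39b.

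**Figure D1:**
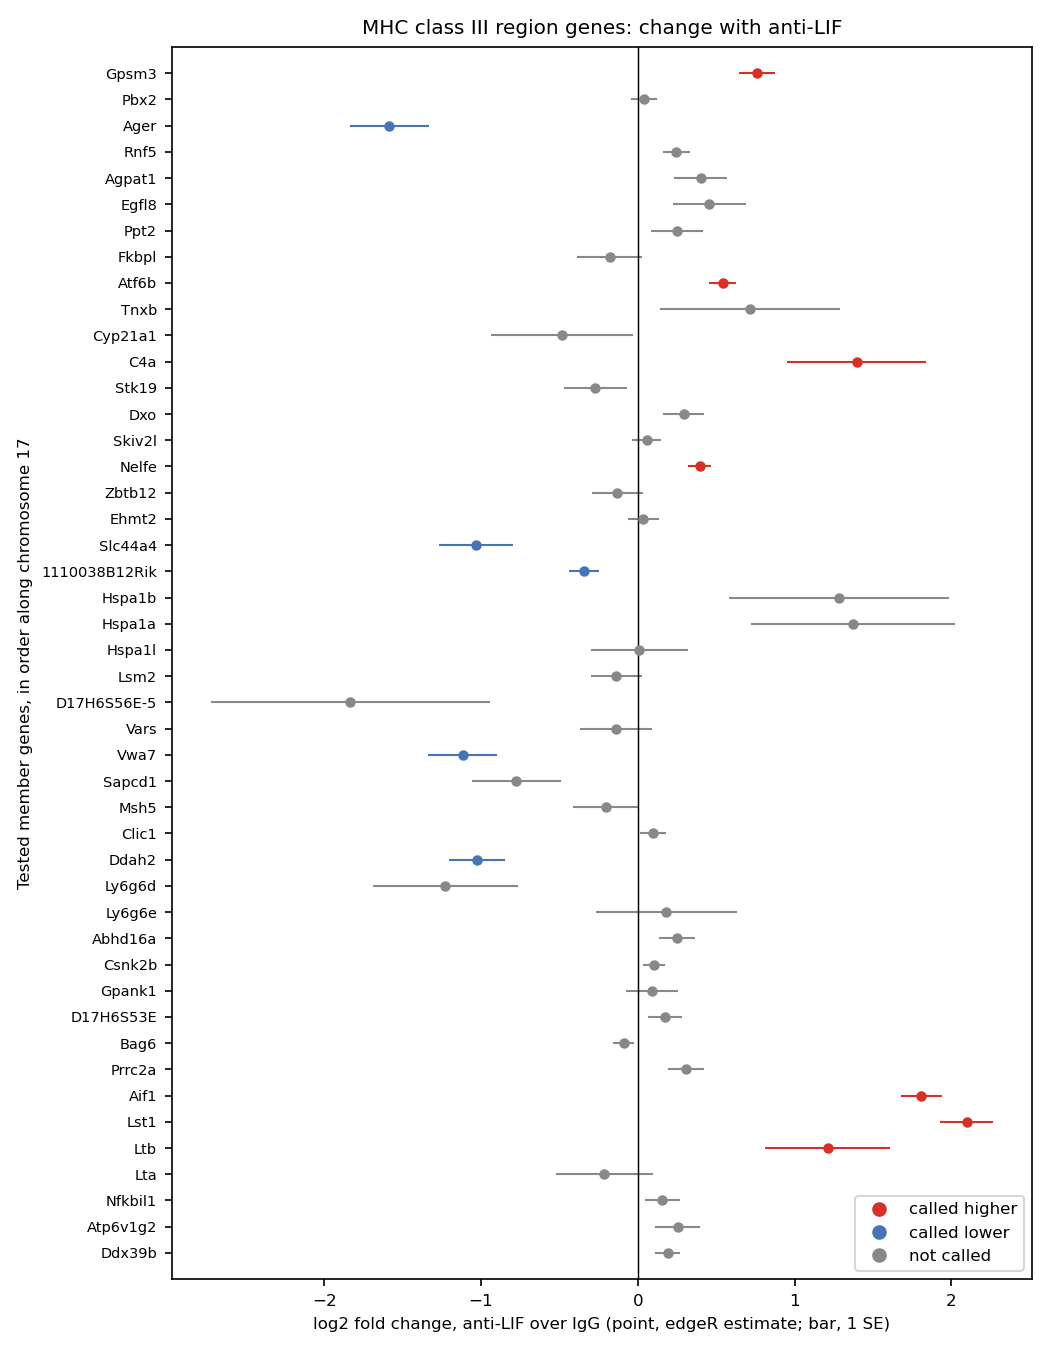
The log2 fold change of each of the 46 tested members (anti-LIF over IgG, edgeR estimate with 1 SE) is plotted in gene order along chromosome 17. Red marks the 7 members called higher, blue the 5 called lower and grey those not called, and calls of both directions lie among members near 0. Scaled to the myeloid list Gpsm3, Atf6b and Nelfe turn negative, and scaled to the epithelial list 1110038B12Rik turns positive.

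The genes of macrophages and other leukocytes held the members with the highest folds. Lst1, leukocyte-specific transcript 1, a small protein of myeloid cells (chromosome 17, 35185095 to 35188440), had 7.51, 5.38, 7.09 and 6.76 CPM in the IgG libraries and 30.1, 28.5, 21.8 and 34.1 in the anti-LIF libraries. It was 4.28-fold higher (log2 fold change 2.10 ± 0.17 SE), and its lowest anti-LIF library lay far above its highest IgG library. Aif1, which encodes the macrophage calcium-binding protein IBA1 (35170992 to 35176001), had 27.5, 21.0, 27.4 and 19.4 CPM with IgG and 88.7, 79.9, 76.3 and 89.1 with anti-LIF. The fold was 3.50 (1.81 ± 0.13), again with a wide gap between the arms. Gpsm3, a regulator of G-protein signalling in leukocytes (34589806 to 34591754), had 38.6, 42.1, 48.8 and 35.6 CPM with IgG and 79.1, 68.4, 63.8 and 68.1 with anti-LIF, a smaller fold of 1.69 (0.76 ± 0.11) that turned negative with the myeloid scaling.

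Ager encodes RAGE, a receptor for S100 proteins and HMGB1 (34597850 to 34600937), and its values ran the other way. It had 3.84, 7.19, 6.43 and 6.22 CPM with IgG and 2.11, 2.0, 1.42 and 2.35 with anti-LIF. It was 3.00-fold lower (−1.59 ± 0.25), without overlap of the arms but at low counts. The call of Ager was lost with libraries scaled to the epithelial list. G6b, a receptor of platelets and their precursors, stood under the filter with 44 counts over the 8 libraries. The myeloid sum given above moved with Lst1, Aif1 and Gpsm3. Its part in these differences was not tested.

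Among known ligands of RAGE, 2 of 7 tested genes were lower and 0 higher with anti-LIF, 28.6% called beside 32.2% of all tested genes. With libraries scaled to the epithelial list 0 were lower and 2 higher. S100a11 fell 1.56-fold, from 215 ± 21.8 to 138 ± 25.8 CPM, and S100a6 fell 2.34-fold, from 969.7 ± 253 to 414 ± 151. Aif1l, the paralog of Aif1, fell 2.04-fold, from 23.8 ± 8.98 to 11.7 ± 4.60 CPM with arms that overlapped. The call of Aif1l was lost without IgG mouse 2, 3 or 4, without anti-LIF mouse 1, 2 or 3, and with libraries scaled to the epithelial list.

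The lymphotoxin genes are cytokines of the tumour necrosis factor family. Ltb, the membrane anchor of the lymphotoxin complex (35194507 to 35196305), had 13.6, 5.11, 4.0 and 4.86 CPM with IgG and 10.4, 17.3, 21.1 and 14.8 with anti-LIF. IgG mouse 1 stood above anti-LIF mouse 1, so the arms overlapped. The fold was 2.31 (1.21 ± 0.40), it was 1.77 on the log2 scale without IgG mouse 1, and the call was lost under 11 of 18 alternatives that do not rescale to a marker list, among them leaving out IgG mouse 2, 3 or 4 or anti-LIF mouse 2, 3 or 4. Lta, the soluble partner (35203165 to 35205351), had 0.803, 0.879, 0.557 and 0.486 CPM with IgG and 0.575, 0.734, 0.433 and 0.604 with anti-LIF, with no separation of the arms at this depth of 86 reads in all. Between the arms the lymphoid and myeloid sums moved in the direction of Ltb. In anti-LIF mouse 1, the lowest of its arm for Ltb, the myeloid sum was the highest of the arm (4.92%) and the lymphoid sum the lowest (0.00643%). The part of these sums was not tested.

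Genes of the lymphotoxin receptor and the noncanonical NF-kB route were more often called higher than lower. Of 13 tested, 8 rose and 0 fell, 61.5% called beside 32.2% of all tested genes, with a median log2 fold change of 0.35. The counts were 3 and 1 scaled by library size alone, and 0 and 12 scaled to the myeloid list. With 1 library left out 3 to 8 rose and 0 fell, fewest without IgG mouse 2, anti-LIF mouse 1 or anti-LIF mouse 3 (3 each), and 4 without IgG mouse 3 or 4 and 5 without anti-LIF mouse 2. The share called over all genes fell too, to 20.1% without IgG mouse 2, 27.8% without anti-LIF mouse 1 and 22.0% without anti-LIF mouse 3. Birc3, an inhibitor of apoptosis, rose 1.43-fold, from 73.6 ± 1.22 to 105 ± 14.9 CPM. Tnfrsf14, the receptor HVEM, rose 1.88-fold, from 6.74 ± 1.46 to 12.7 ± 2.88 CPM, and Tnfrsf1b, a receptor for tumour necrosis factor, rose 1.5-fold, from 229 ± 11.3 to 344 ± 76.0 CPM. Ltbr, the lymphotoxin receptor itself, was not called (119 ± 7.06 CPM with IgG and 110 ± 9.24 with anti-LIF, −0.12 ± 0.08). Without IgG mouse 3 and anti-LIF mouse 3 together only Tnfrsf1b of the called genes kept its call, with 13.1% of all genes called.

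C4a and other secreted or matrix genes were mixed. C4a, which encodes a close copy of complement C4 (34809092 to 34823454), had 25.3, 23.0, 16.0 and 22.4 CPM with IgG and 123, 28.1, 39.5 and 37.2 with anti-LIF. Anti-LIF mouse 1 lay far above the mean of the other 3 anti-LIF libraries, 35.0 CPM. The fold was 2.63 (1.40 ± 0.44), and without anti-LIF mouse 1 the log2 fold change was 0.69, although the arms did not overlap. The call was lost under 9 of 18 alternatives that do not rescale to a marker list, among them leaving out any of the 4 IgG libraries or anti-LIF mouse 3.

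C4a shares most of its sequence with C4b, so reads may be divided between the copies. The count of C4a, set against that of C4b, came to 3.03% to 3.39% of it in 7 libraries and 1.73% in IgG mouse 3. In anti-LIF mouse 1 both were high, with 1927 counts for C4a and 61588 for C4b. How much of the C4a count comes from C4b was not tested.

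Vwa7, a protein with a von Willebrand factor A domain (35016579 to 35026741), was lower. It had 8.77, 10.7, 6.23 and 8.97 CPM with IgG and 3.19, 4.01, 3.52 and 5.24 with anti-LIF, a 2.17-fold difference (−1.12 ± 0.22) with a narrow gap between the arms. The call of Vwa7 was lost with libraries scaled to the epithelial list. Sapcd1, which overlaps Vwa7 by 769 bases on the other strand, averaged 2.06 ± 0.636 and 1.2 ± 0.125 CPM (−0.77 ± 0.28) and was not called. Since no source used here states the strand setting of the counting, reads of the pair may not be told apart.

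Tnxb, the matrix protein tenascin-X, varied most among the 4 matrix and secreted members relative to its level with IgG, with 1.87 to 10.5 CPM there and 5.30 to 18.9 with anti-LIF. It was not called (0.72 ± 0.58). Egfl8, a secreted protein with EGF-like domains, averaged 3.16 ± 0.937 and 4.33 ± 0.488 CPM and was not called (0.46 ± 0.23). It overlaps Agpat1 by 100 bases.

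**Figure D2:**
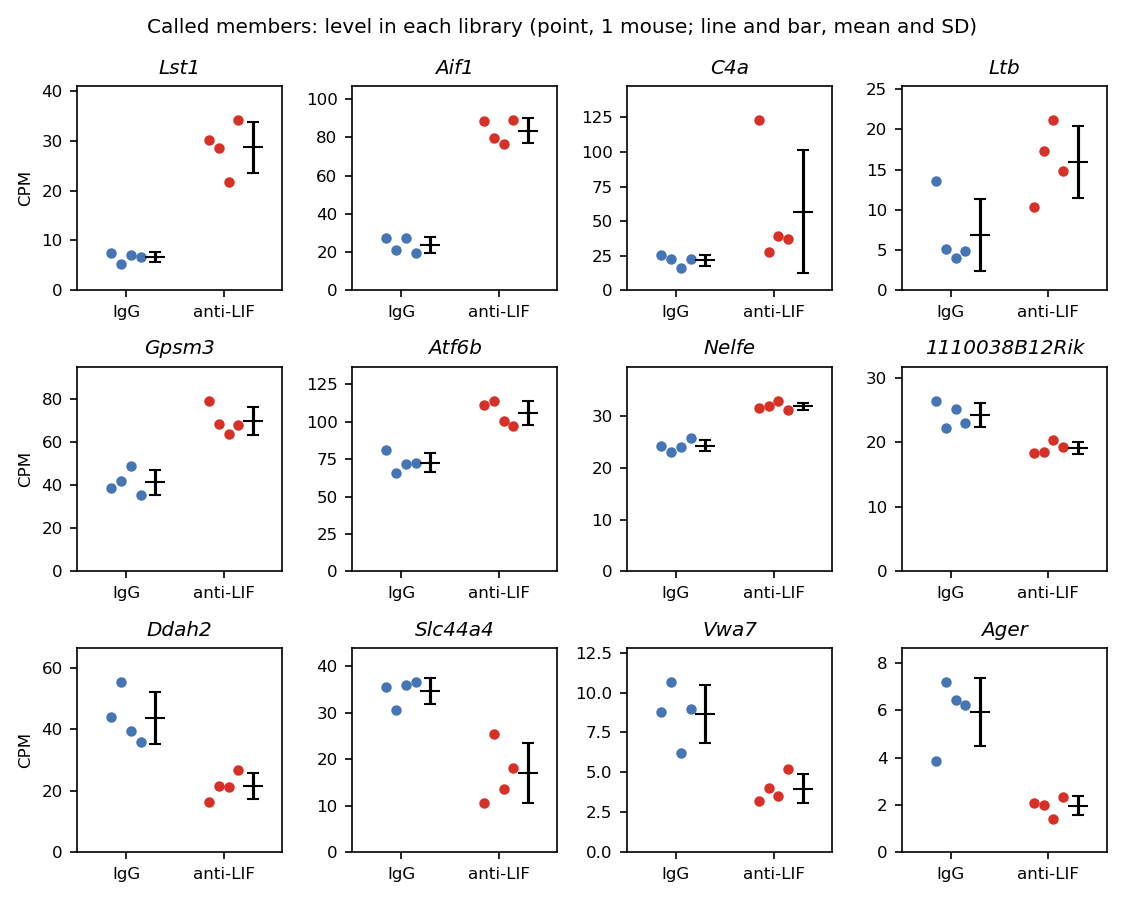
Levels of the 12 called members are shown in CPM in each library (points, 1 mouse each; blue, IgG; red, anti-LIF), with the mean and SD of each arm beside them and axes from 0. The arms overlap only for Ltb, where 1 IgG library reaches 13.6 CPM, and 1 anti-LIF library of C4a stands at 123 CPM.

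Among membrane, lipid and transport genes, Slc44a4, a choline-like transporter of epithelia (34914466 to 34930436), was lower. It had 35.4, 30.7, 36.0 and 36.6 CPM with IgG and 10.7, 25.4, 13.5 and 18.2 with anti-LIF, 2.05-fold lower (−1.03 ± 0.24), and the spread was wider with anti-LIF. The epithelial marker sum moved in the same direction, and its part was not tested. The call of Slc44a4 was lost with libraries scaled to the epithelial list, and without IgG mouse 3 and anti-LIF mouse 3 together. Clic1, a chloride intracellular channel protein (35050243 to 35058719), had the highest level per length of all members, 379.6 CPM per kb. Its libraries held 439.6, 396, 406 and 446 CPM with IgG and 454, 470.1, 436 and 447 with anti-LIF, and it was not called (0.10 ± 0.08).

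Of the other members of this group, Agpat1, an enzyme of phospholipid synthesis, averaged 53.9 ± 13.5 and 71.2 ± 3.06 CPM (0.40 ± 0.17) and was not called. Its arms did not overlap but nearly touched, at 67.84 CPM in IgG mouse 1 and 67.91 in anti-LIF mouse 3. Abhd16a, a phospholipid hydrolase, differed by 0.25 ± 0.11 and Atp6v1g2, a subunit of the vacuolar proton pump, by 0.25 ± 0.14 on the log2 scale. Cyp21a1, the steroid 21-hydroxylase, averaged 5.90 ± 1.46 and 4.23 ± 2.64 CPM. These last 3 were not called either.

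In the CLIC family outside the region, 2 of 4 tested genes fell and 0 rose, 50% of a very short list beside 32.2% of all tested genes. With libraries scaled to the epithelial list 1 was called higher and 0 lower. Clic3 fell 2.03-fold, from 3.87 ± 0.754 to 1.90 ± 0.342 CPM, and Clic6 fell 1.89-fold, from 31.2 ± 4.55 to 16.5 ± 4.75. Agpat2 was the single AGPAT family gene called of 4 tested, and it fell 1.45-fold, from 34.7 ± 1.80 to 24.0 ± 6.10 CPM. That call was lost on leaving out any 1 library other than anti-LIF mouse 2. Of 8 tested V-ATPase V1 subunits, edgeR called 0 and DESeq2 called 0, with 1 at an unadjusted p under 0.05. In the main fit calls made up 25% of the AGPAT list and 0% of the V-ATPase list, beside 32.2% of all tested genes.

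The transcription and chromatin genes held 2 calls among 11 tested members, both higher (18.2% called beside 32.2% of all tested genes). Atf6b, a membrane-bound transcription factor of the unfolded protein response (34647146 to 34655074), had 80.9, 65.8, 71.6 and 72.4 CPM with IgG and 111, 114, 100.4 and 97.3 with anti-LIF, 1.45-fold higher (0.54 ± 0.09) and lower when scaled to the myeloid list. Nelfe, a subunit of the negative elongation factor that holds RNA polymerase II near promoters (34850391 to 34856372), had 24.3, 23.1, 24.0 and 25.7 CPM with IgG and 31.5, 31.9, 32.9 and 31.2 with anti-LIF. The difference was 1.31-fold (0.39 ± 0.07), it too turned negative when scaled to the myeloid list, and the libraries of each arm lay close together. The call of Nelfe was lost by library size alone and without IgG mouse 3 and anti-LIF mouse 3 together.

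The other 9 transcription and chromatin members were not called. Prrc2a, a large protein that binds RNA, averaged 388 ± 56.8 and 479 ± 13.0 CPM (0.31 ± 0.11), with arms that did not overlap. Ehmt2, the histone H3 lysine 9 methyltransferase G9a, averaged 226.95 ± 8.72 and 233 ± 30.1 CPM (0.03 ± 0.10), and Pbx2, a homeobox factor, 65.0 ± 4.10 and 66.7 ± 5.46 (0.04 ± 0.08). The remaining 6, Fkbpl, Stk19, Zbtb12, Gpank1, D17H6S53E and Nfkbil1, lay between −0.27 and 0.17 on the log2 scale.

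Partner genes of these factors moved both ways. Of 5 tested genes of the NELF and DSIF complexes, only Supt5 was called, rising 1.16-fold from 165 ± 6.98 to 191 ± 6.99 CPM. Its call was lost on leaving out any 1 of the 8 libraries, and by library size alone 0 of the 5 were higher and 1 lower. Among 7 methyltransferases and readers of H3 lysine 9, Suv39h2 rose 2.15-fold, from 5.46 ± 1.30 to 11.7 ± 1.26 CPM, and Setdb1 rose 1.31-fold, while Cdyl fell 1.43-fold and Suv39h1 1.39-fold. Setdb1 lost its call without IgG mouse 2 or 3 or anti-LIF mouse 1 or 3, and Suv39h1 without any 1 library other than IgG mouse 3 or anti-LIF mouse 2. Of 8 paralogs and partners of Atf6b and Pbx2, 1 rose (Pknox1, 1.49-fold, from 33.2 ± 3.40 to 49.5 ± 3.61 CPM) and 3 fell, among them Meis2 (1.62-fold) and Pbx3 (1.27-fold). With 1 library left out 1 rose and 0 to 3 fell, 0 without anti-LIF mouse 3 and 1 without IgG mouse 3 or 4 or anti-LIF mouse 2. The counts were 6 and 0 scaled to the epithelial list, and 0 and 8 scaled to the myeloid list. In the main fit calls made up 20% of the NELF and DSIF list and 57.1% of the H3 lysine 9 list. They made up 50% of the Atf6b and Pbx2 list, beside 32.2% of all tested genes, and all of these lists are short.

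Of the 5 tested RNA processing and translation members edgeR called 0, with 1 at an unadjusted p under 0.05, and DESeq2 called 1. Over all tested genes edgeR called 32.2% and DESeq2 38.8%. Ddx39b, the RNA helicase UAP56 of messenger RNA export, ranked next after Clic1 per length with 138 CPM per kb. It had 213, 220.0, 223 and 189 CPM with IgG and 241, 253, 227.5 and 243 with anti-LIF (0.19 ± 0.08). Its arms did not overlap, by a gap of a few CPM. Dxo, a decapping enzyme, averaged 20.9 ± 3.19 and 25.6 ± 2.45 CPM, Skiv2l, the helicase that feeds the RNA exosome, 108 ± 10.2 and 112 ± 7.89, and Lsm2, a subunit of the LSm ring, 18.2 ± 1.92 and 16.6 ± 3.54.

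Among the partners of these members, Exosc10 and Exosc7 rose 1.23-fold and 1.30-fold, 2 of 15 tested genes of the SKI complex and exosome, with 0 lower (0 higher and 1 lower by library size alone). Exosc7 kept its call only without IgG mouse 2 or anti-LIF mouse 4 among the 8 fits that leave out 1 library. In the TREX export complex Chtop rose 1.18-fold and Zc3h11a fell 1.18-fold among 13 tested (0 and 1 by library size alone). Chtop lost its call without IgG mouse 3 or 4 or anti-LIF mouse 3, and Zc3h11a without any 1 library other than IgG mouse 3. Lsm8 fell 1.52-fold and Lsm1 1.29-fold among 7 genes of the LSm ring, and Lsm1 lost its call without any 1 library other than IgG mouse 3 or anti-LIF mouse 2. Of 21 aminoacyl-tRNA synthetases, 3 rose (Dars 1.26-fold, Yars 1.23-fold and Iars 1.24-fold) and 3 fell (Gars 1.33-fold, Qars 1.21-fold and Vars2 1.32-fold). By library size alone 0 were higher and 4 lower. With 1 library left out 1 to 3 rose and 2 to 3 fell, with 1 higher and 2 lower without IgG mouse 2, IgG mouse 4 or anti-LIF mouse 3, 1 and 3 without anti-LIF mouse 2, and 2 and 2 without anti-LIF mouse 4. In the main fit calls made up 13.3% of the SKI and exosome list and 15.4% of the TREX list. They made up 28.6% of the LSm and of the synthetase list, beside 32.2% of all tested genes.

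Of 7 tested genes for protein quality control and signalling, only Ddah2 was called (14.3% beside 32.2% of all tested genes). Ddah2, named for an enzyme that breaks down methylated arginine (35059035 to 35062099), had 44.0, 55.3, 39.4 and 36.0 CPM with IgG and 16.3, 21.6, 21.3 and 26.7 with anti-LIF, 2.04-fold lower (−1.03 ± 0.18), with clear space between the arms. Its call was lost with libraries scaled to the epithelial list. Csnk2b, the regulatory subunit of casein kinase 2 (35116195 to 35121292), had 85.7, 74.8, 80.8 and 77.8 CPM with IgG and 80.1, 87.5, 89.3 and 85.8 with anti-LIF. At 86.1 CPM per kb it was the fifth highest member, it overlapped between the arms, and it was not called (0.10 ± 0.07).

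Bag6, a chaperone for tail-anchored membrane proteins, differed little, with 215 ± 4.45 and 202 ± 7.40 CPM (−0.09 ± 0.07). Its arms did not overlap, by a narrow gap (lowest IgG library 210.3 CPM, highest anti-LIF library 208.6). Rnf5, a ubiquitin ligase of the endoplasmic reticulum, did not overlap either, with 25.1 ± 0.679 and 29.7 ± 2.38 CPM (0.25 ± 0.09). Neither was called. Ppt2, a lysosomal thioesterase, averaged 45.5 ± 4.73 and 54.0 ± 13.4 CPM, and Msh5, a MutS protein of meiosis, 5.00 ± 1.28 and 4.36 ± 0.566.

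Of 6 tested genes that work with Bag6 in tail-anchored insertion, Get4 fell 1.42-fold, from 31.9 ± 2.46 to 22.4 ± 1.55 CPM, and 0 rose. Msh3 fell 1.53-fold, from 25.5 ± 1.77 to 16.7 ± 3.49 CPM, among 5 tested MutS homologs, a call lost without IgG mouse 2. Of the 2 other casein kinase 2 subunits edgeR and DESeq2 called 0, with 1 at an unadjusted p under 0.05. Calls in the main fit made up 16.7% of the tail-anchored insertion list, 20% of the MutS list and 0% of the casein kinase 2 list. Over all tested genes they made up 32.2%, and these lists are short. Over all partner lists, 23 of 150 tested genes were called higher and 20 lower, 28.7% beside 32.2% of all tested genes, and scaled by library size alone 6 were higher and 31 lower. Scaled to the epithelial list 135 were higher and 0 lower, and to the myeloid list 0 and 138, in fits that called 78.0% and 86.1% of all tested genes. Of the 43 called partners, 20 kept their call with each single library left out, 38 lost it without IgG mouse 3 and anti-LIF mouse 3 together, and Hspa2, Tnfrsf1b, Suv39h2, Get4 and Pknox1 kept it under all of the alternatives that do not rescale to a marker list.

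**Figure D3:**
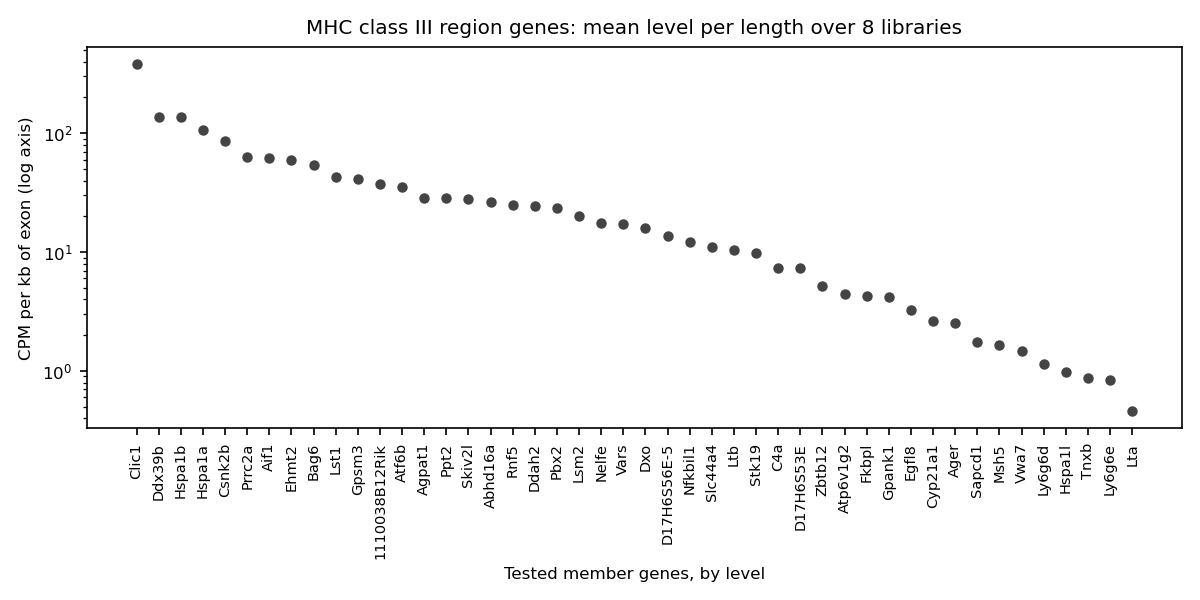
Mean level of the 46 tested members over the 8 libraries, in CPM per kb of counted exon on a log axis, ordered from high to low. Clic1 leads at 379.6 CPM per kb and Lta is lowest at 0.460.

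The heat shock pair stood highest in a single library. Hspa1b (34956429 to 34959238) had 112, 348, 240.2 and 200.1 CPM with IgG and 122, 298, 1462 and 309.9 with anti-LIF. Hspa1a (34969359 to 34972156) had 83.6, 238, 207 and 134 CPM with IgG and 121, 243, 1095 and 256 with anti-LIF. Anti-LIF mouse 3 was high for both, and the other 3 anti-LIF libraries lay within or just above the IgG range.

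Neither gene was called. The log2 fold changes were 1.28 ± 0.70 for Hspa1b and 1.37 ± 0.65 for Hspa1a, and without anti-LIF mouse 3 they were 0.11 and 0.32. The count of Hspa1a was 67.2% to 99.7% of that of Hspa1b over the 8 libraries and 74.9% in anti-LIF mouse 3, so both copies were high there in much the same proportion. The copies are nearly identical in sequence, and no source used here states how reads were divided between them. Hspa1l, the third HSP70 gene of the cluster, had 1.43, 2.25, 2.68 and 3.03 CPM with IgG and 1.98, 1.94, 3.58 and 1.95 with anti-LIF, and was highest in the same library (0.01 ± 0.31).

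Anti-LIF mouse 3 was also highest of all 8 for 13 of 23 other heat shock chaperones and regulators, and in 6 of them by at least 1.5 times the next highest library. Hspa8, the constitutive HSP70, had 379.6 CPM there and 59.8 to 92.9 elsewhere. Dnajb1, an HSP40 co-chaperone, had 422 CPM in that library beside 106 to 195 in the others. What raised these genes in anti-LIF mouse 3 was not tested. In the fit over all libraries 5 of the 23 rose and 1 fell, 26.1% called beside 32.2% of all tested genes. The counts were 4 and 1 without anti-LIF mouse 3, 3 and 1 without IgG mouse 1, 2 or 3, 9 and 1 without anti-LIF mouse 1, 4 and 2 without anti-LIF mouse 2, and 1 and 2 scaled by library size alone. They were 22 and 0 scaled to the epithelial list, and 0 and 14 scaled to the myeloid list. Ahsa1, an activator of HSP90, rose 1.45-fold, Chordc1 1.77-fold and the heat shock factor Hsf1 1.27-fold, whereas Hspa2, another HSP70 gene, fell 2.04-fold, from 40.8 ± 4.25 to 19.98 ± 4.30 CPM.

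**Figure D4:**
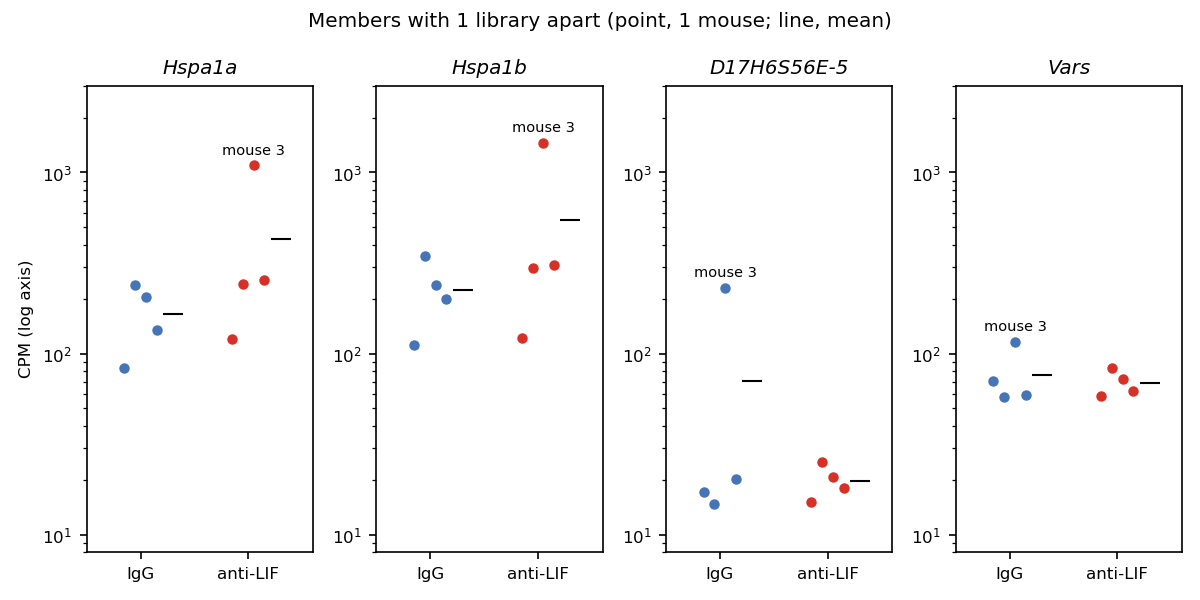
Levels of Hspa1a, Hspa1b, D17H6S56E-5 and Vars are shown in CPM on a log axis (points, 1 mouse each; line, mean of the arm). Anti-LIF mouse 3 stands above the rest for the heat shock pair at 1095 and 1462 CPM, and IgG mouse 3 for D17H6S56E-5 at 231 CPM.

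D17H6S56E-5 and its neighbour Vars were high in a different library. D17H6S56E-5, also named G7e (34996724 to 35000746), had 17.1, 14.8, 231 and 20.4 CPM with IgG and 15.3, 25.4, 20.8 and 18.1 with anti-LIF. IgG mouse 3 lay 9.10 times above the highest of the other 7, from 4559 reads. The log2 fold change of −1.83 ± 0.89 became 0.19 without that library, and the gene was not called in either fit.

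Vars, valyl-tRNA synthetase, is transcribed away from D17H6S56E-5 from a start 160 bases off (35000907 to 35016329). It had 70.8, 57.9, 117 and 58.9 CPM with IgG and 58.5, 83.3, 72.2 and 61.9 with anti-LIF, so IgG mouse 3 was again the highest. Its log2 fold change was −0.14 ± 0.23, and 0.14 without IgG mouse 3. The count of D17H6S56E-5 was 24.2% to 34.6% of that of Vars in 7 libraries and 198% in IgG mouse 3.

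IgG mouse 3 differed from the others along chromosome 17 and not in the members alone. In a comparison chosen after the values were seen, 8 tested genes were at least 4 times higher there than in the highest of the other 7 libraries, and 7 of the 8 lay on chromosome 17, which holds 5.23% of tested genes. They included Atp6v0c-ps2, Atp6v0c, Rps2, Rps18, H2-Eb1 and D17H6S56E-5, and lay between 24.2 and 35.0 Mb. Atp6v0c-ps2 (24163865 to 24169395) and Atp6v0c (24163866 to 24169429) span nearly the same bases. They had 20.31 and 20.36 CPM in IgG mouse 3, so they may count the same reads. H2-Eb1, a class II gene just before the window, had 471 CPM there and 11.5 to 68.5 elsewhere. By the same measure the other 7 libraries had 0 to 6 such genes with 0 to 2 on chromosome 17, the pair in anti-LIF mouse 3 being Hspa1a and Hspa1b. In the other direction, genes at least 4 times below the lowest of the other 7 libraries numbered 127 in anti-LIF mouse 1. They numbered 32 in IgG mouse 2 and 5 in IgG mouse 3, with 4, 2 and 0 of them on chromosome 17. Reads were aligned to mm10, which is built on C57BL/6J, the mice are labelled FVB/NJ, and the count tables carry no read sequences. What sets IgG mouse 3 apart on this chromosome was not tested.

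**Figure D5:**
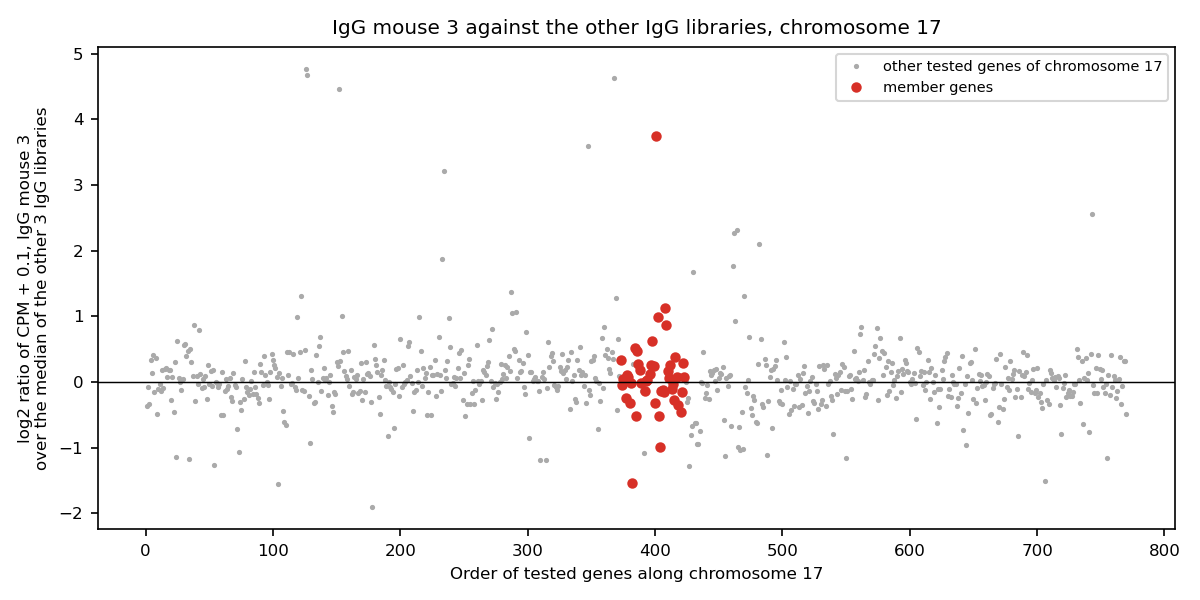
For each of 770 tested genes of chromosome 17, in order, the plot gives the log2 ratio of CPM plus 0.1 in IgG mouse 3 to the median of the other 3 IgG libraries (red, members; grey, other genes). Most members lie near 0, D17H6S56E-5 is at 3.74, and several genes before it on the chromosome reach higher.

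Most members did not stand apart in IgG mouse 3. Ly6g6d and Ly6g6e, genes of the Ly6 family of surface proteins, had 1.67 and 1.37 CPM in that library, against 0.688 to 0.757 and 0.688 to 0.769 in the other 3 IgG libraries. These levels rest on few reads, 97 and 128 in all over 8 libraries. The log2 fold change of Ly6g6d was −1.23 ± 0.47 (−0.81 without IgG mouse 3) and that of Ly6g6e 0.18 ± 0.45 (0.48 without it). EdgeR and DESeq2 called 0 of these 2 genes, with 1 at an unadjusted p under 0.05 in edgeR, and Ly6g6d was called lower (−1.66) without anti-LIF mouse 4. Leaving out IgG mouse 3 and anti-LIF mouse 3 together, a choice made after the values were seen, left 4 members called higher (Gpsm3, Atf6b, Aif1 and Lst1) and 3 lower (Ager, Vwa7 and Ddah2), while the share called over all genes fell from 32.2% to 13.1% with fewer mice.

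The non-coding gene 1110038B12Rik, which hosts a small nucleolar RNA (34950236 to 34952468), was the last of the called members. It had 26.4, 22.2, 25.1 and 23.0 CPM with IgG and 18.3, 18.4, 20.3 and 19.2 with anti-LIF, 1.27-fold lower (−0.34 ± 0.09) but higher when scaled to the epithelial list, with a gap between the arms of under 2 CPM. The call was lost when IgG mouse 1, IgG mouse 3 or anti-LIF mouse 2 was left out, and without IgG mouse 3 and anti-LIF mouse 3 together.

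The 15 members under the filter were Prrt1, G6b, G6bos, Apom, Snord52, Ly6g6c, Ly6g6f, Ly6g5b, Ly6g5c and 6 microRNA genes (Mir6970, Mir6971, Mir6972, Mir6973a, Mir6974 and Mir6975). Mir6971 and Ly6g5c had 0 counts in every library. Mir6970 had most among the others, 63 counts in all, and it lies within Skiv2l. The libraries were made from polyA RNA, so counts at a microRNA or small nucleolar RNA inside a host gene do not measure the mature small RNA.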

How the data were processed

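Whole-transcriptome RNA-seq of 8 libraries was used as deposited. Per the submitters' processing notes, the tools were FastQC 0.11.2, STAR 2.4.0k, HOMER and edgeR 3.6.8, and the build was mm10. Per the file headers, HOMER counted reads in exons and kept 1 transcript for each gene. The authors' deposited main table holds raw counts of reads. The authors' deposited FPKM table holds FPKM, counts scaled by transcript length and library total, and served as an alternative. No source used here gives the HOMER version, strand setting, annotation version or read filters. There were 0 unused columns of single samples.

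Genes were filtered with filterByExpr and scaled by TMM, and the arms were compared with edgeR 4.0.16 (quasi-likelihood, Benjamini-Hochberg, threshold 0.05) in R 4.3.3, over all 14711 genes that passed. Alternatives were other scalings, DESeq2 1.42.0, limma 3.58.1 (voom, and log2 FPKM with pseudocounts of 1 and 0.1), other filters, and each library left out. The fit was tested on simulated counts in which a small part of the genes was changed by known folds, up or down at random. Since 4731 genes were called in the data, the simulation does not test the scaling under a shift in cell makeup. Marker shares were compared by exact permutation. Promoters are from RefSeq (GRCm38.p6).

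Members and gene lists were chosen with earlier results of these data known. Values in every library are given for called members, the 5 highest by FPKM, the 3 with the widest spread within an arm, and the heat shock, lymphotoxin and macrophage groups, and partner genes are up to 3 per list and direction by lowest p. Any other gene named, beside group members given by mean, was chosen after its values were seen. Replicates are separate mice, and the reads carry no molecular identifiers, so depth covers counting error only. Some items, among them part of the genotype and a few genes, are not reported here.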

Additional observations from a re-analysis of the deposited data

Results flagged for a closer look

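In 9 of 92 sets of 4 libraries (46 tested members in 2 arms) the highest library stood apart from the other 3 by more than Dixon's 95% critical value for the gap over the whole range. For normally distributed values about 1 in 20 sets would pass it. The share of such sets over all tested genes is not given here, so no excess among the members is read from the 9. In anti-LIF mouse 3 these were Hspa1b at 1462 CPM (mean of the other 3 libraries 243), Hspa1a at 1095 (207) and Hspa1l at 3.58 (1.95). In IgG mouse 3 they were D17H6S56E-5 at 231 CPM (17.4), Ly6g6d at 1.67 (0.720) and Ly6g6e at 1.37 (0.720). In anti-LIF mouse 1 they were C4a at 123 CPM (35.0) and Dxo at 29.2 (24.4). Ltb stood at 13.6 CPM in IgG mouse 1 (4.66). Members of 1 library share that library's depth and cell makeup, and members next to each other on the chromosome are not independent.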

How the results depend on the processing

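With DESeq2's size factors in edgeR, upper-quartile scaling, DESeq2, limma-voom, no filter, 1 CPM in 4 libraries and log2 FPKM with a pseudocount of 1 or 0.1, 5 to 10 members were called higher and 5 to 7 lower, and leaving out 1 library gave 5 to 8 and 4 to 6. By library size alone 5 were higher and 8 lower, and without IgG mouse 3 and anti-LIF mouse 3 together, a setting added after seeing the data, 4 and 3. Among the settings listed first, the share called over all genes ran from 22.4% (no filter, 20.3% of members) to 38.8% (DESeq2, 32.6% of members). It was 34.0% by library size alone (28.3% of members) and 13.1% without both mice (15.2% of members). The median of the members was −0.056 by library size alone and −0.011 and −0.032 on the log2(FPKM + 1) and log2(FPKM + 0.1) scales, where the median of all tested genes moved to −0.16, −0.10 and −0.13. Scaled to the epithelial list (all genes 1.04) the members' median was 1.15 with 37 higher and 0 lower, and to the myeloid list (all genes −1.15) it was −1.04 with 2 and 38. These are 80.4% and 87.0% of the tested members, beside 78.0% and 86.1% of all tested genes. Signs that turned on a call with the epithelial scaling were Fkbpl 0.91, Stk19 0.79, Zbtb12 0.93, 1110038B12Rik 0.71, Lsm2 0.89, Vars 0.87, Msh5 0.82, Bag6 0.96. With the myeloid scaling they were Gpsm3 −0.39, Pbx2 −1.13, Rnf5 −0.91, Agpat1 −0.75, Egfl8 −0.69, Ppt2 −0.95, Atf6b −0.61, Dxo −0.86, Skiv2l −1.10, Nelfe −0.76, Ehmt2 −1.14, Hspa1l −1.13, Clic1 −1.05, Abhd16a −0.92, Csnk2b −1.03, Gpank1 −1.07, D17H6S53E −0.99, Prrc2a −0.85, Nfkbil1 −1.02, Atp6v1g2 −0.88, Ddx39b −0.95. These shifts follow from the scaling, which moves all genes alike. Partner genes called were 6 higher and 31 lower by library size alone, and 11 to 22 and 11 to 18 with 1 library left out, lowest without anti-LIF mouse 3. The share called over all genes with 1 library left out was 20.1% to 29.5%, and 22.0% without anti-LIF mouse 3. Scaled to the epithelial list they were 135 and 0, and to the myeloid list 0 and 138, both added after seeing the data. Without its most abundant gene, a list's difference in share was 0.00227 percentage points (lymphoid, no longer separating the arms), −0.00160 (fibroblast, turned) and −0.00104 (endothelial, turned), and the cause was not tested. Nelfe lost its call by library size alone, and both Nelfe and Slc44a4 lost theirs without IgG mouse 3 and anti-LIF mouse 3 together. No paired analysis was possible because mouse numbers do not recur between the arms. Members under about 1 CPM (Lta, Ly6g6d, Ly6g6e) rest on few reads, which limits the precision of their values.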
